A study of Homo sapiens with 6 samples.

Results

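The 10 genes described here are the GTPases RAP1A and RAP1B, 6 GTPase-activating proteins (GAPs) of the SIPA1 and RAP1GAP families, and the exchange factors (GEFs) RAPGEF1 and RAPGEF2. SIPA1L2 was chosen by its rise in siNAT10 against siNC, the only contrast in the study, and the other 9 genes were listed around it by family. They are 10 of the 62754 genes in the deposited count table. Of these, 8 had at least 10 counts in 3 libraries, and the GAP genes RAP1GAP and RAP1GAP2 did not and are reported as low. All values come from HK-2, an immortalised line from human proximal tubule epithelium. All 6 samples received Cisplatin, a platinum drug that damages DNA and injures tubule cells. The siNC group was transfected with negative control siRNA and the siNAT10 group with siRNA against NAT10, with 3 RNA libraries in each group. The comparison asks which transcripts differ when NAT10, an acetyltransferase that modifies cytidine in RNA, is silenced in such cells. The labels give no dose, time or siRNA sequence, and only 1 cell line was used. Nothing states that the 3 libraries of a group came from separate cultures, so the p-values measure the spread between these libraries, which may be technical.

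Rap proteins are small GTPases of the Ras superfamily that are active when bound to GTP. GEFs load them with GTP and GAPs speed its hydrolysis, so the balance of both sets how much Rap is active. In epithelia, active Rap1 is known for strengthening integrin attachment to the matrix and cadherin junctions between cells, and Rap2 for binding a group of STE20-type kinases. Transcript levels, as measured here, do not give the GTP-bound share of any Rap protein.

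Total counts lay between 19321665 and 25192736 per library. NAT10 was read first as a check of the labels. Its counts were 1428, 1528 and 1409 in siNC replicates 1 to 3, and 869, 886 and 1076 in siNAT10 replicates 1 to 3. As CPM, counts relative to the scaled library size, the groups did not overlap, at 73.5 ± 2.25 in siNC and 41.4 ± 0.963 in siNAT10 (mean ± SD, n = 3). NAT10 in siNAT10 was at 56.4% of its siNC level (log2 fold change -0.82 ± 0.043 SE; edgeR quasi-likelihood adjusted p = 2.79e-15). The silencing was therefore partial at the transcript level.

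Markers were counted as present at a mean of 1 CPM or more over the 6 libraries. Those of epithelial and renal tubule cells were abundant, with 7 of 9 present and a summed level of 2080 to 2139 CPM in siNC and 2047 to 2073 CPM in siNAT10. The keratin KRT8 led this list, and the tubule transcription factor PAX8 was present at 31.4 ± 1.34 CPM in siNC and 47.2 ± 4.48 CPM in siNAT10. E-cadherin (CDH1), a cadherin of epithelial junctions, had at most 2 counts in any library, whereas N-cadherin (CDH2) was at 75.2 and 86.2 CPM. Markers of the differentiated proximal tubule were mostly missing, with 1 of 9 (SLC5A2) present, while AQP1 was close, at 1.03 CPM in siNC and 0.694 CPM in siNAT10. LRP2, SLC22A6 and SLC22A8 had fewer than 3 counts in every library. The label holds for tubule epithelium in culture, but not for most of the mature transporter and endocytosis genes listed, with SLC5A2 as the exception. Of 7 leukocyte markers, 3 were present, and their sum was 202 to 220 CPM in siNC and 270 to 292 CPM in siNAT10. Nearly all of it was CD68, a lysosomal protein that other cells also make, while MS4A1 had at most 2 counts and LYZ at most 3. PTPRC, found on all leukocytes, was rare but higher in siNAT10, at 0.418 and 0.824 CPM (7 to 10 counts in siNC and 10 to 29 in siNAT10, log2 fold change 0.96, edgeR adjusted p = 0.0411). Its siNAT10 counts were 10, 29 and 17 in replicates 1 to 3, and the call was not checked with any library left out. Of the 3 leukocyte markers present, CD68 passed as higher (log2 fold change 0.40, edgeR adjusted p = 7.97e-10). CD14, at 1.07 and 1.04 CPM, and CSF1R, at 3.06 and 3.25 CPM, did not pass. Of 6 neuronal markers 3 were present, led by TUBB3, with sums of 171 to 187 CPM in siNC and 213 to 219 CPM in siNAT10 and STMN2 at 0. RBFOX3, another of the 3, went the other way, from 1.53 to 0.923 CPM. No endothelial marker of 6 was present at that level, and their sum stayed at or under 0.701 CPM. The part of these marker differences in the values of the Rap genes was not tested. In RNA from whole cultures, fewer cells with a transcript and less of it per cell cannot be told apart.

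SIPA1L2 encodes a GAP of the spine-associated SIPA1-like family, studied mostly in neurons, that acts on Rap proteins. It lies on the minus strand at chr1:232397965-232630516 (GRCh38). Its counts were 199, 222 and 228 in the siNC libraries and 824, 781 and 931 in the siNAT10 libraries. All 3 siNAT10 libraries were above all 3 siNC libraries, with a wide gap and little spread inside either group. In CPM the gene stood at 10.6, 10.4 and 11.8 in siNC and at 39.1, 35.7 and 36.7 in siNAT10. The siNC mean was 10.9 ± 0.797 and the siNAT10 mean 37.2 ± 1.75 CPM (n = 3). This is a 3.41-fold rise (log2 fold change 1.77 ± 0.064 SE). It ranked 7 among all rises by log2 fold change, and 3 once genes averaging under 5 CPM were set aside. Since this rise chose the gene, it is a description and carries no test. The plot of CPM by gene shows it beside the other tested members.

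**Figure D1:**
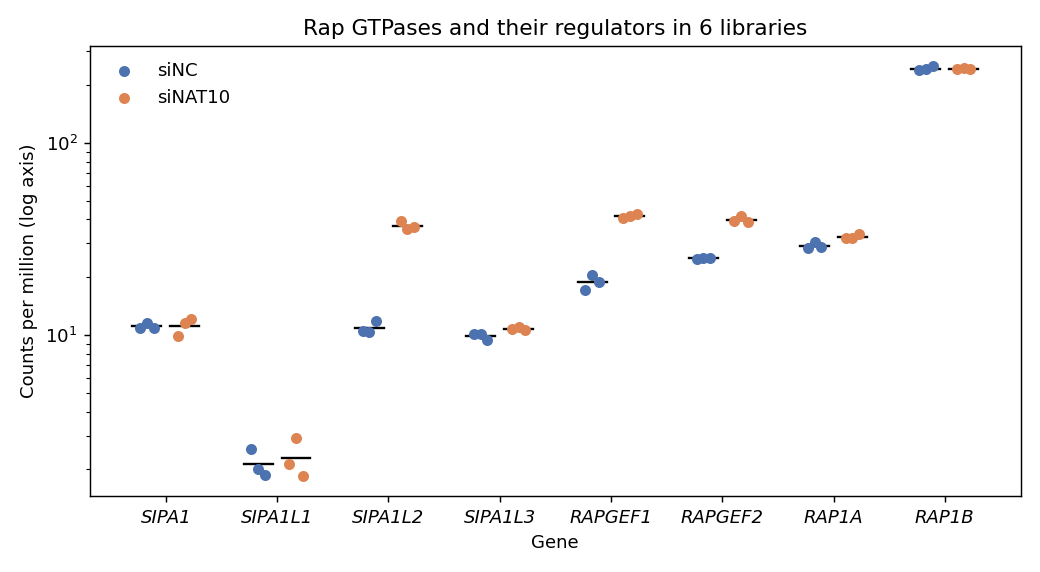
CPM on a log axis for the 8 tested genes, with 1 point per library (siNC blue, siNAT10 orange) and a bar at each group mean. SIPA1L2, RAPGEF1 and RAPGEF2 are clearly higher in siNAT10, while RAP1B sits at 244 CPM in both groups.

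Of the 7 other tested genes, 3 passed an adjusted p under 0.05 as higher (RAPGEF1, RAPGEF2 and RAP1A), none as lower, and 4 did not pass. Over all 19874 genes tested, 21.8% passed as higher and 22.3% as lower. RAPGEF1 alone of the 7 also exceeded a log2 fold change of 1, a limit that 0.951% of all tested genes passed as higher and 1.38% as lower. Because the list was drawn up with results of this contrast known, nothing is read from these counts. The adjusted p-values below describe single genes.

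RAPGEF1 is a Rap1 exchange factor that CRK-type adaptors bring to sites of adhesion. It had 324, 441 and 363 counts in siNC and 862, 909 and 1078 in siNAT10. The lowest siNAT10 library, at 40.9 CPM, lay well above the highest siNC library, at 20.6 CPM. The means were 18.9 ± 1.70 CPM in siNC and 41.7 ± 0.796 CPM in siNAT10 (log2 fold change 1.14 ± 0.057 SE, edgeR adjusted p = 1.40e-15).

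RAPGEF2 (PDZ-GEF1), an exchange factor that binds junctional scaffolds of the MAGI type, had 471, 542 and 483 counts in siNC. In siNAT10 it had 824, 912 and 988. The siNC libraries were nearly equal, none above 25.3 CPM, and every siNAT10 library lay above them, between 39.0 and 41.7 CPM. Its mean rose from 25.1 ± 0.160 to 39.9 ± 1.54 CPM, with a log2 fold change of 0.67 ± 0.050 (SE; edgeR adjusted p = 9.57e-12).

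RefSeq gave a promoter window for 9 of the 10 genes, and not for RAP1GAP. The windows of the 3 members with the largest rises are shown. Each line is the strand of the gene on GRCh38.p14, 5′ to 3′. The lines of SIPA1L2 and RAPGEF1 end at the annotated start. RAPGEF2 is shown for 184 bases only, and its line stops before the 66 annotated exon bases at the end of its window. Capitals mark 3 motifs that were searched for on both strands. The GC box was spelled GGGCGG, and neighbouring GC boxes can overlap. A second motif was the CCAAT box, which is known from many promoters of widely expressed genes. The last was the TATA box, spelled TATAAA, which is typical of promoters with a sharply placed start.
SIPA1L2: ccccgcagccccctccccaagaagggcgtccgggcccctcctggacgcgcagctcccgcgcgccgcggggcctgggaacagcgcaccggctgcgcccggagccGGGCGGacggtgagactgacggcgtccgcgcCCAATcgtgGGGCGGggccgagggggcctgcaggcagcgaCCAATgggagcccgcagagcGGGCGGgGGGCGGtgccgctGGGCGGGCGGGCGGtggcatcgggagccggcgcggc
RAPGEF1: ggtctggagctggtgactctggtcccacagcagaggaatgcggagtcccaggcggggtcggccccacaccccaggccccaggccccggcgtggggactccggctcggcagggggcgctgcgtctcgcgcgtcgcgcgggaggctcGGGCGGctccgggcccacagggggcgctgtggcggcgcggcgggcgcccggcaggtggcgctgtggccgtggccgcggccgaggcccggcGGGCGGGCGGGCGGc
RAPGEF2: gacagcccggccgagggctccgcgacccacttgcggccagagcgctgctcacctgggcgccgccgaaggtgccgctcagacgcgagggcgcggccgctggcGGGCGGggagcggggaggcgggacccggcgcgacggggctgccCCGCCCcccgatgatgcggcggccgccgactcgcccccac
These lie at chr1:232630134-232630383 (minus), chr9:131740077-131740326 (minus) and chr4:159102829-159103012 (plus). The count table places the outer end of SIPA1L2 farther upstream, at 232630516, so its window may sit inside a longer transcript. In 250 bases SIPA1L2 held 7 GC boxes and 2 CCAAT boxes, RAPGEF1 held 4 GC boxes, and RAPGEF2 held 2. None of the 3 held a TATA box. Over 35116 RefSeq windows, 42.6% held a GC box, 32.0% a CCAAT box and 10.7% a TATA box. Windows with at least 7 GC boxes were 1.12% of all, those with at least 4 were 7.63%, and those with at least 2 were 24.3%. Dense GC boxes were not limited to the genes that rose, since RAP1B held 6. RAP1GAP2, which was too low to test, held 4. That window, at chr17:2776508-2776757, lies inside the gene, which the count table starts at 2755705. RAP1A held none, SIPA1 and SIPA1L3 held 1 each, and SIPA1L1 held 2. G and C made up 81.2% of the SIPA1L2 window, 81.6% of that of RAPGEF1 and 75.2% of that of RAPGEF2, against a median of 58.0% over all windows. These matches describe letters, and no binding was measured.

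SIPA1 (SPA-1), the founding GAP of the family and known from lymphoid cells, had 206, 249 and 210 counts in siNC and 208, 254 and 308 in siNAT10. The groups overlapped. Its level was 11.2 ± 0.410 CPM in siNC and 11.2 ± 1.19 CPM in siNAT10, and the log2 fold change of 0.01 had a 95% interval from -0.16 to 0.19 (edgeR adjusted p = 0.930). Its sign turned when siNC replicate 1, siNC replicate 3, siNAT10 replicate 2 or siNAT10 replicate 3 was left out, reaching -0.05 without siNAT10 replicate 3.

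SIPA1L3, a GAP with a known role in the eye lens and in epithelial polarity, had 190, 216 and 181 counts in siNC and 226, 241 and 270 in siNAT10. Its siNAT10 libraries were all slightly above its siNC libraries in CPM, with means of 10.8 ± 0.197 and 9.86 ± 0.399. The log2 fold change was 0.13 (95% interval -0.04 to 0.30) and did not pass (edgeR adjusted p = 0.206). SIPA1L1 (SPAR), which organises dendritic spines in neurons, was the least abundant tested member, with 48, 43 and 36 counts in siNC and 45, 64 and 47 in siNAT10. These overlapped, and the wide interval of its log2 fold change, -0.29 to 0.49, reflects the few reads. Without siNAT10 replicate 2 the value of 0.10 became -0.10.

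Just outside the limit of 10 counts in 3 libraries was RAP1GAP, an abundant Rap1 GAP in some differentiated tissues. It had 6, 9 and 6 counts in siNC and 14, 13 and 8 in siNAT10, so 2 libraries reached 10. The next lowest member, SIPA1L1, was well inside the limit, with 36 to 64 counts per library. RAP1GAP2, best known from platelets, had 0, 1 and 4 counts in siNC and 4, 2 and 13 in siNAT10. At this depth no difference could be read for either gene.

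RAP1B, the main Rap1 form of platelets, was by far the most abundant member, with 4493, 5196 and 4822 counts in siNC and 5135, 5364 and 6150 in siNAT10. In CPM the libraries ran from 239 to 250 in siNC and from 243 to 245 in siNAT10, and the siNAT10 range lay inside the siNC range. The log2 fold change was 0.0004, with a 95% interval from -0.07 to 0.07, and its sign turned under RLE or upper quartile scaling. RAP1BL, a close copy of RAP1B, had 75 to 106 counts in siNC and 92 to 137 in siNAT10, and reads that match both genes may have been dropped or shared, which the counts cannot show.

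RAP1A encodes the near twin of RAP1B. It had 534, 656 and 555 counts in siNC and 675, 702 and 851 in siNAT10. In CPM the siNAT10 libraries (32.1, 32.1 and 33.6) all lay above the siNC libraries (28.4, 30.6 and 28.8), by a small margin. The means were 29.3 ± 1.21 and 32.6 ± 0.856 CPM (log2 fold change 0.15 ± 0.051 SE, edgeR adjusted p = 0.0150). This call was lost with DESeq2 (adjusted p = 0.0895) and without siNC replicate 1 (0.0817), siNC replicate 3 (0.0608) or siNAT10 replicate 3 (0.0735). Over all alternatives its adjusted p ran from 0.00377 to 0.0895. Whether reads were counted by strand is not given in the sources used here, and INKA2 and LINC01160 lie across RAP1A on the opposite strand, so their reads cannot be told apart from its own where exons meet. INKA2, a kinase inhibitor gene, fell there from 7.42 to 5.88 CPM (log2 fold change -0.34, edgeR adjusted p = 0.00970). That call was lost with DESeq2 (adjusted p = 0.0590) and without siNC replicate 1 (0.0590), within a range from 0.00556. LINC01160 had 13 to 25 counts per library and did not pass.

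To compare genes with each other, CPM was divided by the gene length in kilobases from the count table (RPKM). In siNC the order was RAP1B (14.4 ± 0.353), RAP1A (5.29 ± 0.218), RAPGEF1 (2.61 ± 0.234), SIPA1 (2.40 ± 0.0881), RAPGEF2 (1.89 ± 0.0120), SIPA1L2 (1.28 ± 0.0932), SIPA1L3 (0.952 ± 0.0386) and SIPA1L1 (0.173 ± 0.0289). Among these neighbours only RAPGEF1 and SIPA1 overlapped in their libraries. In siNAT10, SIPA1L2 stood at 4.35 ± 0.205 RPKM and had moved from place 6 to place 4, past RAPGEF2 (3.01 ± 0.116) and SIPA1 (2.41 ± 0.255). RAPGEF1, at 5.76 ± 0.110 RPKM, then overlapped with RAP1A, at 5.89 ± 0.155. RAP1GAP and RAP1GAP2 came last in both groups, at or under 0.0914 RPKM on average. The length counts all annotated exons, so a gene with long unused exons reads low.

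The per-length level of the 6 GAP genes summed to 4.87 ± 0.0528 RPKM in siNC and 8.11 ± 0.0795 RPKM in siNAT10. SIPA1L2 made up 25.6%, 24.6% and 28.4% of that sum in the siNC libraries and 56.9%, 51.6% and 52.4% in the siNAT10 libraries. Among these 6 genes SIPA1L2 led in every siNAT10 library, and SIPA1 in every siNC library. Of other genes with a Rap GAP domain, PLXNB2 was higher in both groups, at 23.4 and 21.6 RPKM. The SIPA1 share was 49.2% ± 1.34 in siNC and 29.7% ± 2.91 in siNAT10, while its own level stayed at about 2.4 RPKM. These shares contain SIPA1L2, which was selected on this contrast, and are given without a test.

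On the side of the GEFs, the 4 tested genes named RAPGEF with a number were summed, a grouping chosen after the values were seen. Their level was 11.2 ± 0.187 RPKM in siNC and 14.2 ± 0.301 RPKM in siNAT10. RAPGEF3 (EPAC1), the exchange factor that cyclic AMP switches on, led in siNC with 45.8% ± 1.59 of the sum. In siNAT10 RAPGEF1 led with 40.5% ± 1.25, and RAPGEF3 held 26.4% ± 1.28. RAPGEF6 held 13.9% and 11.9%. The stacked bars of summed RPKM show both sets of genes.

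**Figure D2:**
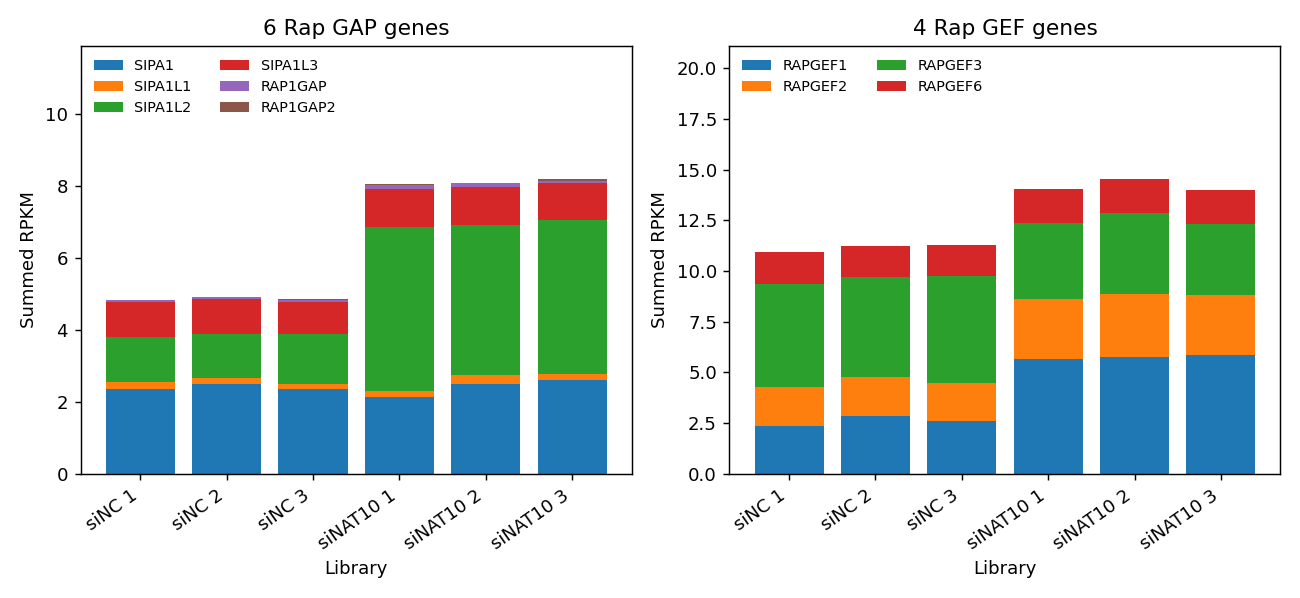
Summed per-length level (RPKM) per library, stacked by gene, for the 6 GAP genes on the left and 4 GEF genes on the right. The GAP bars grow from about 4.87 to 8.11 RPKM through SIPA1L2, and the GEF bars from 11.2 to 14.2 RPKM through RAPGEF1 and RAPGEF2 while RAPGEF3 shrinks.

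Other genes of the Rap pathway were taken as 85 genes in 9 lists, of which 75 were tested. Of these, 28 passed as higher (37.3%), 18 as lower (24%) and 29 did not pass, beside 21.8% and 22.3% of all tested genes. Those shares are also the background of each list's counts below. The lists were drawn up with earlier results of these data known, so nothing is read from any of these counts or medians. The median log2 fold change was 0.07 over these 75 and 0.007 over all tested genes. The plot of log2 fold changes by list shows them with the members.

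**Figure D3:**
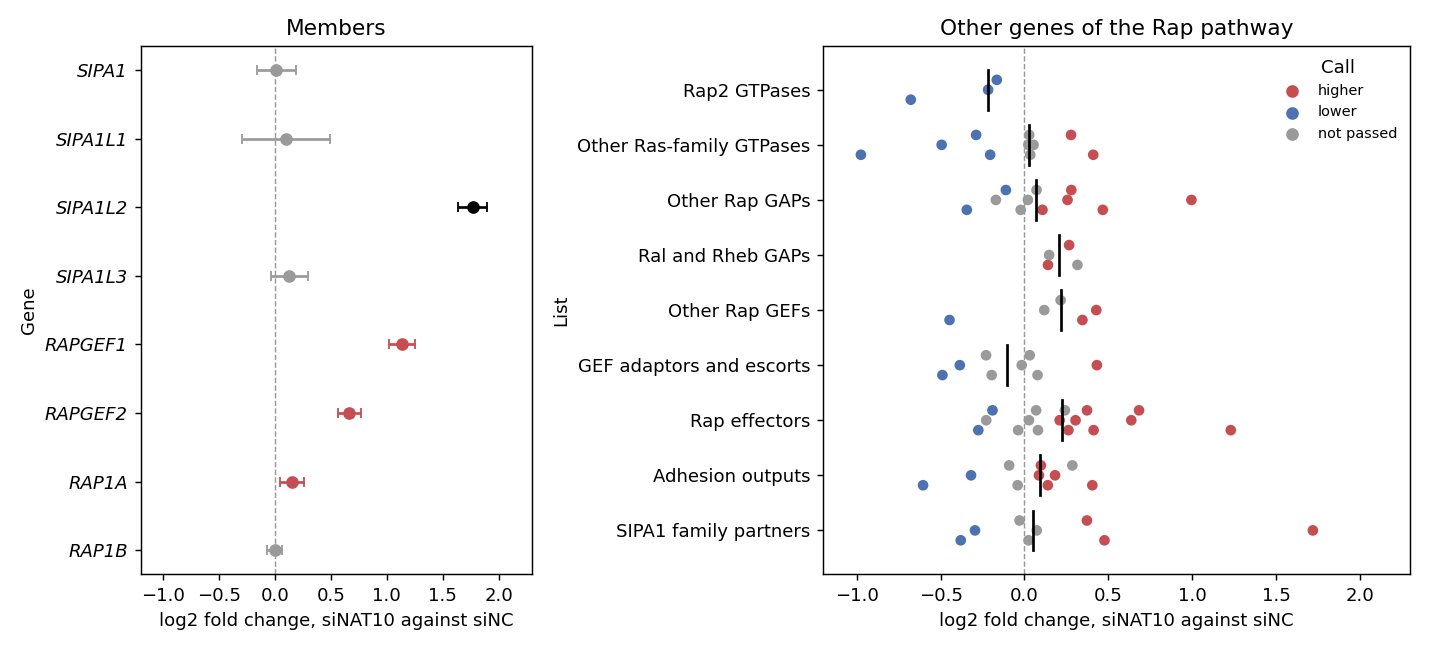
Log2 fold change of siNAT10 against siNC. Left, the 8 tested members with 95% intervals (SIPA1L2 in black, without a test). Right, 1 point per tested pathway gene (red higher, blue lower, grey not passed) with a black bar at each list's median. All 3 Rap2 GTPases lie below 0 and 8 of 16 Rap effectors are higher, in lists chosen with earlier results of these data known.

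The Rap2 GTPases, close relatives of Rap1, were lower in 3 of 3 cases. RAP2C had 522, 563 and 489 counts in siNC and 325, 366 and 439 in siNAT10. Its 3 siNAT10 libraries all lay below its siNC libraries, and the mean fell from 26.5 ± 1.18 to 16.5 ± 0.964 CPM (log2 fold change -0.68 ± 0.062 SE, edgeR adjusted p = 3.88e-10). RAP2B went from 33.0 to 29.4 CPM (log2 fold change -0.17, edgeR adjusted p = 0.00704). RAP2A went from 15.9 to 13.7 CPM (log2 fold change -0.22, edgeR adjusted p = 0.0208). The RAP2A call was lost under library size scaling (adjusted p = 0.0603), with DESeq2 (0.0830), and without siNC replicate 3 (0.0963) or siNAT10 replicate 1 (0.146), within a range of 0.0159 to 0.146. Without that last library the log2 fold change was -0.14. Summed per length, the 3 Rap2 genes stood at 13.2 ± 0.238 RPKM in siNC and 9.93 ± 0.479 RPKM in siNAT10.

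Among Rap effectors, proteins that bind the GTP-loaded form, 8 of 16 tested genes passed as higher and 2 as lower, beside 21.8% and 22.3% of all tested genes. The 3 with the smallest p were TNIK, MINK1 and MAP4K4, the kinases known to bind Rap2. TNIK had 255, 323 and 276 counts in siNC and 664, 812 and 819 in siNAT10. Every siNAT10 library of TNIK was above every siNC library, and the mean rose from 14.3 ± 0.773 to 33.7 ± 3.04 CPM (log2 fold change 1.23 ± 0.067 SE, edgeR adjusted p = 9.29e-15). MAP4K4, the most abundant effector on the list per length, rose from 171 ± 2.23 to 274 ± 8.35 CPM (log2 fold change 0.68, edgeR adjusted p = 1.13e-15). MINK1 rose from 89.8 ± 3.04 to 140 ± 5.65 CPM (log2 fold change 0.64, edgeR adjusted p = 8.93e-14). The 3 kinases together, a grouping chosen after their values were seen, stood at 26.9 ± 0.574 RPKM in siNC and 43.6 ± 1.40 RPKM in siNAT10.

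**Figure D4:**
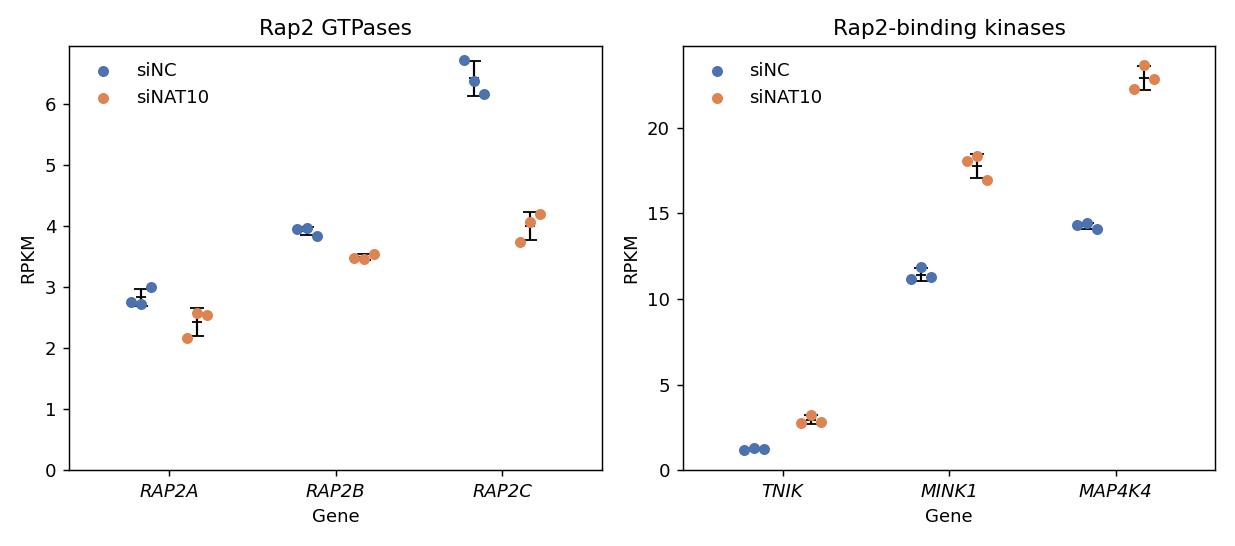
Per-length level (RPKM) of the Rap2 GTPases on the left and of 3 Rap2-binding kinases on the right, with 1 point per library and the group mean ± SD in black. RAP2C separates the groups most among the GTPases, and all 3 kinases are higher in siNAT10.

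Of 10 other tested Ras-family GTPases, 2 were higher and 4 lower. NRAS, a Ras form that signals to growth pathways, fell from 59.8 ± 1.81 to 30.4 ± 0.586 CPM (log2 fold change -0.97 ± 0.046 SE, edgeR adjusted p = 3.77e-16). RHEB, the GTPase that activates mTORC1, fell from 113 ± 0.219 to 80.3 ± 2.44 CPM (log2 fold change -0.49, edgeR adjusted p = 6.57e-12). RALA, a GTPase of exocytosis and the most abundant of the list per length, rose from 136 ± 3.72 to 165 ± 2.35 CPM (log2 fold change 0.28, edgeR adjusted p = 1.09e-07). The median log2 fold change of the list was 0.03.

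Among other genes with a Rap GAP domain, 5 of 11 tested were higher and 2 lower. Most are plexins, the receptors of semaphorins. PLXNA1 rose from 67.5 to 93.5 CPM (log2 fold change 0.47, edgeR adjusted p = 1.58e-10) and PLXND1 from 42.8 to 51.2 CPM (0.26, adjusted p = 0.000129). PLXNC1 was rare, with 13 to 20 counts in siNC and 36 to 44 in siNAT10 (log2 fold change 0.99 ± 0.234 SE, edgeR adjusted p = 0.000897). PLXNB2, the most abundant, went from 170 to 157 CPM (log2 fold change -0.11, edgeR adjusted p = 0.00899). That call was lost under library size scaling (log2 fold change -0.07, adjusted p = 0.0845) and without siNAT10 replicate 1 (0.0542), within a range of 0.00554 to 0.0845. Of the 4 GAPs of the same fold for Ral and Rheb, 2 were higher and none lower. TSC2, the GAP for RHEB, rose from 35.9 to 43.2 CPM (log2 fold change 0.27, edgeR adjusted p = 8.46e-05), while RHEB itself fell. RALGAPB rose from 85.0 to 93.5 CPM (0.14, adjusted p = 0.00472), a call lost without siNAT10 replicate 3 (0.0529, in a range from 0.000515). RALGAPA1, at 5.30 and 5.87 CPM, did not pass.

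Of 5 other tested Rap GEFs, 2 were higher and 1 lower. RAPGEF3 had 1166, 1283 and 1232 counts in siNC and 963, 1057 and 1075 in siNAT10. All siNAT10 libraries were lower in CPM, with means of 61.9 ± 2.02 and 45.5 ± 2.98 (log2 fold change -0.45 ± 0.047 SE, edgeR adjusted p = 7.01e-09). PLCE1, a phospholipase with a Rap GEF domain known for its role in podocytes, rose from 15.8 to 21.1 CPM (log2 fold change 0.43, edgeR adjusted p = 1.81e-05). DOCK4 went from 3.61 to 4.62 CPM (0.35, adjusted p = 0.0386), and that call was lost with DESeq2 and without any of 4 libraries. Those adjusted p-values were 0.149 with DESeq2, 0.102, 0.0728 and 0.0710 without siNC replicates 1, 2 and 3, and 0.243 without siNAT10 replicate 1, in a range from 0.0230. In that last case the log2 fold change was 0.22.

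Adaptors and escorts of the GEFs showed 1 higher and 2 lower of 8. CRK, the adaptor that recruits RAPGEF1, fell from 86.9 ± 2.20 to 61.9 ± 1.47 CPM (log2 fold change -0.49 ± 0.039 SE, edgeR adjusted p = 2.94e-11). CBL, a ubiquitin ligase that binds CRK proteins, fell from 20.8 to 15.9 CPM (log2 fold change -0.39, edgeR adjusted p = 4.76e-05). MAGI3, a junctional scaffold, rose from 5.10 to 6.87 CPM (log2 fold change 0.43, edgeR adjusted p = 0.00130). CRKL, the close relative of CRK that also binds RAPGEF1 and is named here after its values were seen, was at 35.9 and 37.8 CPM and did not pass (log2 fold change 0.08, edgeR adjusted p = 0.219).

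The adhesion outputs of Rap had 5 higher and 2 lower of 10 tested genes. TLN1 (talin), which links integrins to actin and activates them, fell from 272 ± 2.61 to 218 ± 3.41 CPM (log2 fold change -0.32 ± 0.032 SE, edgeR adjusted p = 2.85e-09). The integrin subunit ITGB1, the most abundant of the list, rose from 724 to 797 CPM (log2 fold change 0.14, edgeR adjusted p = 0.000809). PXN (paxillin) rose from 91.7 to 104 CPM (0.18, adjusted p = 0.000149), and FERMT1 (kindlin-1) from 9.37 to 12.4 CPM (0.40, adjusted p = 0.000238). CDH1 could not be tested, having at most 2 counts.

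Of 8 tested partners of the SIPA1 family, 3 were higher and 2 lower. EPHA4, an ephrin receptor that signals through SIPA1L1 in neurons, had 34, 29 and 36 counts in siNC and 111, 121 and 143 in siNAT10. The groups were far apart, at 1.68 ± 0.281 and 5.48 ± 0.190 CPM (log2 fold change 1.72 ± 0.150 SE, edgeR adjusted p = 1.65e-10). LZTS2, of a family of scaffold proteins that bind SIPA1-like GAPs, fell from 70.8 to 57.8 CPM (log2 fold change -0.30, edgeR adjusted p = 5.21e-07). PLK2, the kinase that marks SIPA1L1 for degradation, was the most abundant at 537 and 565 CPM and did not pass (adjusted p = 0.0799). It passed under library size scaling (0.00505) and with no filter on low counts (0.0445), in a range up to 0.356.

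The tested genes whose centred log2 CPM over the 6 libraries was nearest to that of SIPA1L2 were H2AC6, H2BC12, IL6R, EPHA4 and EDDM13. Their root mean square distances were 0.102, 0.108, 0.124, 0.134 and 0.167 log2 units. IL6R, the receptor for interleukin 6, stood at 9.93, 9.90 and 10.3 CPM in siNC and 29.4, 28.8 and 29.8 CPM in siNAT10. Like SIPA1L2 it had close libraries within each group, and its own gap between the groups was nearly 3-fold. H2BC12, a histone gene, went from 4.90 to 15.4 CPM, and H2AC6 from 1.48 to 4.79 CPM. Histone genes have near-identical copies, so their counts are uncertain. EDDM13 was rare, with 10 to 13 counts in siNC and 36 to 49 in siNAT10. These likenesses follow the group difference, since a gene that rose by the same amount comes out near. EPHA4 is also on the list of SIPA1 partners. That list was drawn up with earlier results of these data known, so nothing is read from this overlap.

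Around SIPA1L2 on chromosome 1, 34 other genes within 2 Mb were tested, of which 6 were higher (17.6%), 9 lower (26.5%) and 19 did not pass, beside 21.8% and 22.3% of all tested genes. The largest rise among them was that of PGBD5, named after its value was seen, with a log2 fold change of 0.96. On the side of lower coordinates the nearest were TSNAX-DISC1, TSNAX and ENSG00000287856. TSNAX, which encodes the RNA- and DNA-binding protein translin-associated factor X, fell from 77.6 to 49.1 CPM (log2 fold change -0.66, edgeR adjusted p = 2.39e-13). TSNAX-DISC1 is a read-through gene that shares exons with TSNAX, so its log2 fold change of -0.65 is not separate. ENSG00000287856 did not pass, at 33.0 and 31.5 CPM. On the other side, MAP10 (2.22 and 1.66 CPM) and NTPCR (32.2 and 34.7 CPM) did not pass, though NTPCR did under library size scaling (edgeR adjusted p = 0.0385, in a range up to 0.695). PCNX2 rose from 2.62 to 3.72 CPM (log2 fold change 0.51, edgeR adjusted p = 0.00525). No tested neighbour within 2 Mb rose as much as SIPA1L2, and the closest one, MAP10, was 175 kb away.

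**Figure D5:**
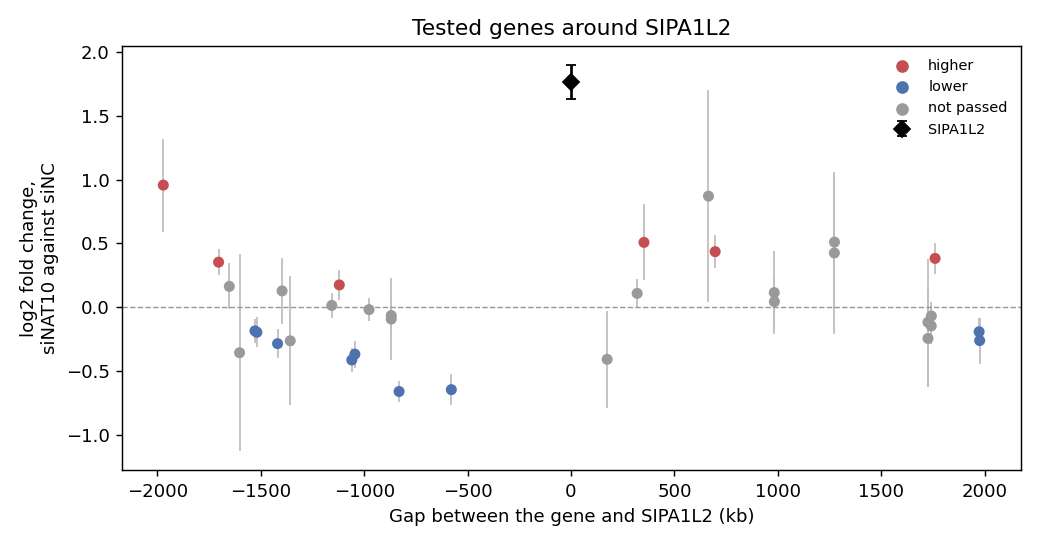
Log2 fold change with 95% intervals against the gap in kb between each tested gene and SIPA1L2 (black diamond, at 1.77). Red genes passed as higher, blue as lower, grey did not pass. The highest neighbour, PGBD5, is at 0.96.

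The 3′ untranslated regions were read for 3 heptamers that had been picked earlier from these same libraries as frequent in genes that fell, so matches here are descriptions. The heptamer GACTATC is the rarest in the pathway genes. The heptamer ACTATCA shares 6 bases with it and can overlap it. The last heptamer, CATATTC, had the most sites in the pathway genes. Of 13085 tested coding genes with such a region, 17.3% carried at least 1, with 26.7% of those that fell, 12.4% of those that rose and 14.9% of those that did not pass. SIPA1L2, RAPGEF1, RAPGEF2 and RAP1A carried none. Among the tested members only RAP1B held matches, 2 of ACTATCA, and both lie beyond the end that the count table gives this gene. Of the pathway genes, 8 of 18 that fell carried a match (44.4%), 7 of 28 that rose (25%) and 2 of 29 that did not pass (6.90%). When only sites inside the gene ends of the count table are kept, these become 8 of 18, 2 of 28 (7.14%) and 2 of 29, and RALA, PLXNC1 and PLCE1 are among the genes that lose theirs. Over all coding genes the share then becomes 14.7%, with 23% of those that fell, 10.1% of those that rose and 12.7% of those that did not pass. Sites of 3 genes that fell are shown on the strand of the gene, with the heptamer in capitals.
NRAS: tcataaattaCATATTCcttttggttt
RAP2C: gttttcttgcACTATCAcaattgcttt
CRK: ctggaaccatACTATCAaatggcgaca
In GENCODE 29 (GRCh38) these lie at chr1:114705429-114705455, chrX:132204568-132204594 and chr17:1423109-1423135, all on the minus strand. Longer regions hold more matches whatever their genes do, and length was not adjusted for.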

How the data were processed

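The 6 HK-2 samples, all given Cisplatin, were sequenced as stranded libraries with molecular identifiers. The deposited values are raw counts per gene made with featureCounts, by the company that sequenced the libraries. The submitters' processing notes list Trimmomatic 0.36, STAR 2.5.3a, Subread 1.5.1 and edgeR 3.12.1 on GRCh38. Whether reads with the same identifier were merged, and whether strand was used in counting, is not given in the sources used here. Groups and replicate numbers came from the sample titles, and no library was left out.

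The fit used edgeR 4.0.16 on top of limma 3.58.1, under R 4.3.3. After filterByExpr (minimum count 10, minimum total 15) 19874 genes were left, holding 99.8% of counts in every library. Libraries were scaled by TMM and compared with the quasi-likelihood test without a replicate term, with Benjamini-Hochberg adjustment over all tested genes. Genes with an adjusted p under 0.05 were called. SE and 95% intervals come from the same fit. RPKM is CPM divided by the deposited gene length. Sequences were read with Python 3.11.15 and pandas 2.3.3 from GENCODE 29 and RefSeq, and plots drawn with matplotlib 3.10.9. The fit was tested on simulated counts.

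The members and lists were chosen with earlier results of these data known. Besides NAT10 and the members, the genes named are, in each pathway list, up to 3 with the smallest p and the most abundant per length, the 5 profiles nearest to SIPA1L2, its 3 nearest tested genes on each side, and genes overlapping a member. Of the genes this rule picks, 1 is not reported here. Alternatives were RLE, upper quartile and library size scaling, no filter and a minimum count of 50, the replicate number as a block, DESeq2 1.42.0, edgeR's exact test, and leaving out each library in turn.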

Additional observations from a re-analysis of the deposited data

How the results depend on the processing

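Under 14 alternatives SIPA1L2 kept a log2 fold change between 1.72 and 1.83, and NAT10 one between -0.85 and -0.79. The SIPA1L2 share of the 6 GAP genes rose by 25.8 to 28.5 percentage points without 1 library, and by 27.4 with all. Members other than SIPA1L2 that passed as higher numbered 2 or 3, and pathway genes 24 to 30 higher and 15 to 18 lower. Over all genes, calls past both limits went from 189 higher and 275 lower to 301 higher and 410 lower with no filter and to 80 higher and 122 lower with a minimum count of 50, where fewer genes are tested. Library size scaling put 57.2% of all calls on the higher side, against 49.4%.

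Of 694 comparisons of an alternative with the 50 tested genes picked by the naming rule, 660 kept direction and call, 18 lost the call, 3 gained it and 13 turned in sign. All turns were in genes that did not pass. RAP1B was at -0.0025 with RLE, -0.0048 with upper quartile scaling, -0.0030 with the stricter filter and -0.0025 with DESeq2. Without 1 library RAP1B ran from -0.0172 to 0.0160, SIPA1 from -0.0528 to 0.0921, SIPA1L1 from -0.10 to 0.25 and ATP5PDP4, a rare gene inside RAP1B, from -0.0192 to 0.456. The cause was not tested. SIPA1L1, PLXNC1, MAP10, EDDM13, LINC01160 and ATP5PDP4 were not tested under the stricter filter.

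Replicate numbers did not pair the libraries, since deviations of same-numbered libraries correlated at 0.00808, 0.0639 and -0.205 over 12304 genes. With the number as a block, 4208 genes were higher and 4318 lower, SIPA1L2 was at 1.77, and no call changed among the genes picked by the naming rule. Depth limits RAP1GAP, RAP1GAP2 and SIPA1L1 most.

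No sample went without Cisplatin, so a response to NAT10 siRNA alone and one that needs the drug cannot be told apart. Without the siRNA sequence, effects on other transcripts cannot be told apart from those of NAT10. Protein levels and Rap activity were not measured.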
